A study of Mus musculus with 8 samples.

Results

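Kinesins are motor proteins that use ATP to move along microtubules or to take their ends apart. The 42 genes described here are all genes of the deposited expression table whose mouse symbol is Kif with a number and at most 1 further letter, or Kifc with a number, out of 21959 genes. Sorted by textbook role, 15 act on the spindle or in cytokinesis, 17 move organelles, vesicles or other cargo, and 10 work in cilia or in signalling or are less studied. The rule looks at names only, so it leaves out Cenpe, a kinesin that holds chromosomes at the kinetochore, and the accessory subunits of the motors.

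The libraries are RNA sequencing of oocytes from mouse ovaries at postnatal day 1, in 4 wild-type libraries and 4 libraries from mice in which Rbpms2, an RNA-binding protein gene, is knocked out. Each library came from a tube of 5 to 10 putative primordial oocytes taken up by mouth pipette after the ovaries were dissociated with enzymes, with RNA amplified for 18 cycles. The labels give neither the strain, nor the deleted part of Rbpms2, nor which tubes came from separate mice, so every p-value here reflects only how much tubes vary, and that variation could be technical. Values are FPKM, fragments scaled to the length of the gene and to the reads of the library, listed in the order of replicates 1 to 4. A gene was tested where it had at least 1 FPKM in 4 or more libraries. It was called where a linear model on log2(FPKM + 1), fitted with limma over 11235 genes, gave an adjusted p under 0.05. Folds are ratios of mean FPKM, and log2 fold changes are knockout minus wild type on log2(FPKM + 1), a scale that understates changes of low genes.

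Rbpms2 itself had 158, 167, 136 and 213 FPKM in the wild-type libraries and 38.4, 58.3, 30.99 and 42.5 FPKM in the knockout libraries (limma adjusted p = 7.26e-05). Recovered from the steps of the values, the depth was 8321939 to 14542890 reads per library. Of 10 oocyte markers 8 fell (Zp3, Kit, Gdf9, Nobox, Figla, Dppa3, Sohlh1 and Lhx8) and 2 rose (Ddx4 and Dazl), with a median log2 fold change of -3.20, and their summed level was 5200 to 7872 FPKM in wild type and 766 to 1882 FPKM in knockout. Zp3 and Gdf9 were under 1 FPKM in every knockout library, and the other 8 were above 10 FPKM in all libraries but 1. Markers of other ovarian cells differed between tubes and in part between genotypes. Of the tested ones 2 of 6 immune and 1 of 8 granulosa markers were called higher in knockout. Of 3 mesothelial and epithelial markers 1 was called lower. No tested stromal, endothelial or erythroid marker was called. Of all tested genes 17.7% were called higher and 25.6% lower. The endothelial sum was 3.93 FPKM or more in every knockout library and 2.66 FPKM or less in every wild-type library. The summed FPKM of 12 granulosa, 10 stromal and 11 immune markers was 379, 474 and 481 in knockout replicate 3, against 45.4, 109 and 24.1 in wild-type replicate 3, the highest of its group. Knockout replicate 2 had 402 for the stromal list, and knockout replicate 1 had 336 for 8 endothelial markers, which summed to 6.89 or less elsewhere. The sum of 6 erythroid markers was 4211 and 5354 in wild-type replicates 1 and 3, 2819 and 3212 in knockout replicates 2 and 3, and at most 159.97 elsewhere. Wild-type replicate 3 and knockout replicates 2 and 3, the 3 libraries with the highest granulosa and stromal sums, were left out together as an alternative, which keeps the endothelial markers of knockout replicate 1 and the erythroid markers of wild-type replicate 1. In such bulk tubes fewer cells of a type and less RNA per cell cannot be told apart.

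Spindle kinesins are known from dividing cells, where KIF11 pushes the spindle poles apart and KIF4 and KIF23 organise the midzone between separating chromosomes. Oocytes of the newborn ovary are finishing or resting in meiotic prophase, and they assemble a spindle only when they later resume meiosis. Transport kinesins such as kinesin-1 (KIF5) and kinesin-2 (KIF3) carry mitochondria, vesicles and ciliary cargo in cells of all kinds.

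Of the 42 kinesin genes 29 could be tested, and 15 were called, 4 higher and 11 lower in knockout. Among all tested genes 43.4% were called, 17.7% higher and 25.6% lower, so the share of kinesins called (51.7%) lay close to this background. For 17 of the 29 kinesins every library of one genotype lay above every library of the other, which held for 39.9% of all tested genes. The median log2 fold change was -0.38 over the tested kinesins and -0.12 over all tested genes. With quantile scaling 6 kinesins were called higher and 8 lower, against 2503 higher and 2511 lower of all 11235 tested genes. Kif17 and Kif21b entered the test through their wild-type libraries alone, since all of their knockout libraries were below 1 FPKM, so they could pass the filter only with a difference between the genotypes.

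By role, the calls were as follows. Of 14 tested spindle and cytokinesis kinesins 4 rose, 4 fell and 6 were not called, with a median log2 fold change of 0.33. Of 12 tested transport kinesins none rose, 6 fell and 6 were not called, with a median of -0.95. Kif17 and Kif21b, which could pass the filter only with a difference between the genotypes, are among those 6 falls and in that median. At an unadjusted p under 0.05 the transport list had 1 member higher (Kif5b) and 7 lower, the counts that limma-voom also gave. With quantile scaling 1 transport kinesin was called higher and 3 lower, and with equal totals or median-of-ratios scaling 1 higher and 6 lower. Leaving out any 1 wild-type library also took Kif17 and Kif21b out of the test, because fewer than 4 of their libraries then reached 1 FPKM. Of the 10 transport kinesins still tested, 4 were called lower without wild-type replicate 1 and 3 without wild-type replicate 2, 3 or 4. The median of those 10 was -0.61 or -0.60 without wild-type replicate 1 or 2 and -0.66 without replicate 3 or 4. Each shift thus also reflects the loss of these 2 genes. With the trend against GC content removed the medians were 0.57 for the spindle and -0.395 for the transport kinesins. The spindle median was 0.20 without knockout replicate 1 and 0.58 without knockout replicate 3. The summed level of the 15 spindle kinesins was 163, 172, 165 and 170 FPKM in the wild-type libraries and 217, 178, 138 and 181 FPKM in the knockout libraries, which overlapped. The summed level of the 17 transport kinesins was 154, 141, 128 and 156 FPKM in wild type and 104, 94.3, 126 and 93.6 FPKM in knockout, where the highest knockout library (replicate 3) lay just under the lowest wild-type one. The ratio of the spindle to the transport sum had a mean of 1.17 ± 0.111 over the wild-type and of 1.75 ± 0.448 over the knockout libraries (SD, n = 4 each). Knockout replicate 3 stood at 1.09, within the wild-type range, and the other knockout libraries at 1.88 to 2.09. Kif3a made up 41.0% ± 7.89 of the transport sum in wild type and 46.7% ± 11.7 in knockout (SD, n = 4 each). In knockout replicate 3 Kif5b had 55.4 of the 126 FPKM. Neither gene was called, so the transport sum mostly follows a few members. These sums describe the lists and were not tested.

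Because the kinesins moved in both directions, the stretches before the start sites of 5 of them are printed here, from RefSeq on GRCm38.p6. On the log2(FPKM + 1) scale Kif18a had the largest rise among the called spindle kinesins, Kif14 the largest fall there and Kif21a the largest fall among the transport kinesins. Kif11, which rose, and Kifc5b, which fell, were added after their values were seen. Each stretch has the 250 bases before the annotated start, except that of Kif18a, which stops 130 bases before it because exons of the neighbouring gene Mettl15 lie in the rest. In GENCODE 1 transcript of Kif14 starts further upstream, at 136466343, so the stretch shown for Kif14 lies in an intron of that transcript and before the start of the other coding ones. Capitals mark the letters of a CHR element (TTTGAA or its reverse complement TTCAAA), through which cell cycle genes are repressed outside division, and of a CCAAT box (CCAAT or ATTGG), which binds the factor NF-Y.
Kif18a, chr2:109280488-109280608 (plus strand): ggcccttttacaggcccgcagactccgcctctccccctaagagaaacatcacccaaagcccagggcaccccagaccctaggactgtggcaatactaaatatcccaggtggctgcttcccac
Kif11, chr19:37376132-37376381 (plus strand): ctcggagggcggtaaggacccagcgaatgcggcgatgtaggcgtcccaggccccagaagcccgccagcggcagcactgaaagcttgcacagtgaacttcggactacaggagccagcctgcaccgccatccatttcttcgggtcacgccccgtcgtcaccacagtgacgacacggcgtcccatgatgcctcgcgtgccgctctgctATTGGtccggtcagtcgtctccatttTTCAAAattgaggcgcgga
Kif14, chr1:136467598-136467847 (plus strand): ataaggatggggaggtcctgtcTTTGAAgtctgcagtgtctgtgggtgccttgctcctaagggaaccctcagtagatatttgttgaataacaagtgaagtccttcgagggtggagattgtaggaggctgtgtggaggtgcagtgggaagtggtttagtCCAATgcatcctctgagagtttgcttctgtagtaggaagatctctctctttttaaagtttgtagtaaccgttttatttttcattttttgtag
Kifc5b, chr17:26916841-26917090 (plus strand): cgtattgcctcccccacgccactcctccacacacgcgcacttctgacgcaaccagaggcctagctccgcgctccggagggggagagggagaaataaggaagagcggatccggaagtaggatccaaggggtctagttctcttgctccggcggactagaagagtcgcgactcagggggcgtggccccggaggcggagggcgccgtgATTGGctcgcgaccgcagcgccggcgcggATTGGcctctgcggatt
Kif21a, chr15:91049952-91050201 (minus strand): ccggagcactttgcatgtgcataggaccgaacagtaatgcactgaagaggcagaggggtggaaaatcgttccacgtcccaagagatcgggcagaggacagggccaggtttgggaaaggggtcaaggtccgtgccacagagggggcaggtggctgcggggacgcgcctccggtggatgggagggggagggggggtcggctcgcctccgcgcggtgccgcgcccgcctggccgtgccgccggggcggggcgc

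In these stretches the CCAAT letters stood 45 bases before the start in Kif11, 92 in Kif14 and 46 and 17 in Kifc5b. The CHR letters stood 19 bases before the start in Kif11 and 228 in Kif14. The 250 bases of Kif18a and of Kif21a held neither. RefSeq gave such a window for 33 of the 42 kinesins. A CCAAT box on either strand was in 48.5% of those 33 and in 37.5% of 27025 genes, and a CHR element in 24.2% against 18.3%. All 4 spindle kinesins that fell (Kif4, Kif14, Kifc1, Kifc5b) held the CCAAT letters, as did Kif11 among the 4 that rose and 3 of the 5 uncalled ones with a window (Kif18b, Kif22, Kif23). Kifc1 and Kifc5b are near copies and do not count as independent, and the Kif14 window lies in an intron of 1 of its transcripts. The marked letters of Kif14 thus lie inside the annotated span of the gene. Whether transcription starts just after that window was not tested. The CHR letters were in 2 of the 4 that rose (Kif11, Kif15), 1 of the 4 that fell (Kif14) and 2 of the 5 uncalled ones (Kif22, Kif2c). Of the 6 transport kinesins that fell 4 had a window, and none of these held either set of letters, whereas 3 of the 4 uncalled transport kinesins with a window (Kif1b, Kif3a, Kif3b) held the CCAAT letters, as did both uncalled ciliary ones (Kif24, Kif27). The element TTCGAA, another form of the CHR, was in 1 kinesin window (Kif24), or 3.03%, against 1.55% of all genes. The letters TAATTG (reverse complement CAATTA), bound by the oocyte factor NOBOX, were in the windows of Kif6 and Kif9, 6.06% against 8.3%. A match of letters is a description of the sequence and not evidence of binding.

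**Figure D1:**
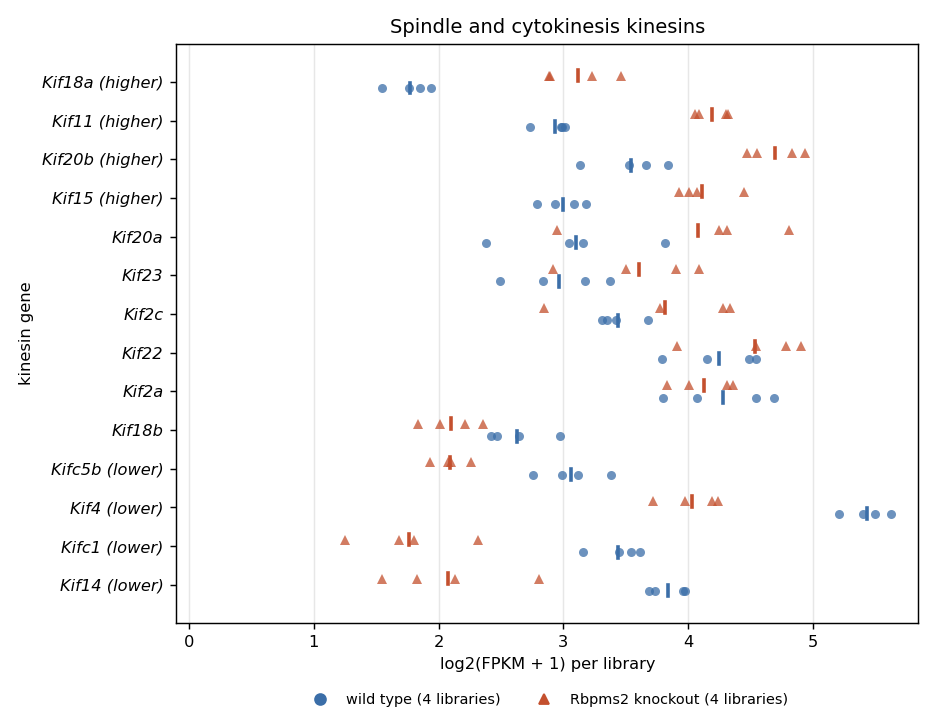
Levels of the 14 tested spindle and cytokinesis kinesins. The x axis is log2(FPKM + 1), each circle a wild-type library, each triangle a knockout library and each short bar the mean of 4 libraries. Genes marked higher or lower were called at a limma adjusted p under 0.05, and in the 4 top rows and the 4 bottom rows the circles and triangles do not overlap.

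The 4 spindle kinesins that rose work from the spindle poles to the closing of the midbody. Kif18a (chromosome 2, 109280738 to 109341747 in GRCm38), a motor that dampens the movements of chromosomes at the spindle equator, had 2.83, 2.61, 2.39 and 1.93 FPKM in the wild-type libraries and 10.04, 8.36, 6.38 and 6.43 FPKM in the knockout libraries. It rose 3.2-fold (log2 fold change 1.34, SE 0.25, limma adjusted p = 0.00173), and its lowest knockout library was more than double its highest wild-type library.
Kif11 (chromosome 19, 37376403 to 37421859), the motor that keeps the spindle bipolar, had 6.88, 7.06, 6.96 and 5.65 FPKM in the wild-type libraries and 18.7, 15.98, 15.6 and 18.9 FPKM in the knockout libraries. Its wild-type libraries lay within a narrow range and all knockout libraries were above it, 2.61-fold on average (log2 fold change 1.26, SE 0.20, limma adjusted p = 0.000656). The pseudogene Gm15697 matched 35.1% of the Kif11 transcript at 90.6% identity. Kif15 (chromosome 9, 122951046 to 123018733), which can take over from KIF11, had 5.904, 8.05, 7.504 and 6.62 FPKM in the wild-type libraries and 20.8, 14.2, 15.1 and 15.8 FPKM in the knockout libraries, a rise of 2.34-fold (log2 fold change 1.12, SE 0.22, limma adjusted p = 0.00211). Here knockout replicate 1 was the highest and the other knockout libraries were close together. Kif20b (chromosome 19, 34922361 to 34975745), which acts in the last step of cytokinesis, had 10.5, 13.3, 11.6 and 7.77 FPKM in the wild-type libraries and 29.6, 22.4, 21.1 and 27.4 FPKM in the knockout libraries and rose 2.33-fold (log2 fold change 1.16, SE 0.22, limma adjusted p = 0.00197).

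The 4 that fell were Kif4, Kif14, Kifc1 and Kifc5b. Kif4 (chromosome X, 100625737 to 100727214), a motor that binds chromosomes and the spindle midzone, had 35.8, 41.1, 43.98 and 48.3 FPKM in the wild-type libraries and 14.7, 17.2, 12.1 and 17.8 FPKM in the knockout libraries. It was the most abundant spindle kinesin of wild-type oocytes and fell 2.73-fold (log2 fold change -1.40, SE 0.20, limma adjusted p = 0.000291). Its share of the summed spindle kinesin level went from 25.2% ± 2.88 to 8.78% ± 1.4 (SD, n = 4 each). Kif14 (chromosome 1, 136466343 to 136531511), which acts with citron kinase in cytokinesis, had 14.7, 12.3, 14.5 and 11.8 FPKM in the wild-type libraries and 3.39, 1.92, 2.55 and 5.98 FPKM in the knockout libraries. It fell 3.86-fold (log2 fold change -1.76, SE 0.29, limma adjusted p = 0.000834), with knockout replicate 4 the highest of its group. Kifc1 (chromosome 17, 33875659 to 33890661), a motor that walks to the minus end and focuses spindle poles, had 9.89, 11.2, 7.91 and 10.7 FPKM in the wild-type libraries and 3.98, 2.22, 2.48 and 1.38 FPKM in the knockout libraries, a fall of 3.95-fold (log2 fold change -1.68, SE 0.28, limma adjusted p = 0.000873). Kifc5b (chromosome 17, 26917091 to 26932583) had 5.77, 9.41, 7.65 and 6.95 FPKM in the wild-type libraries and 3.79, 2.81, 3.29 and 3.22 FPKM in the knockout libraries and fell 2.27-fold (log2 fold change -0.97, SE 0.24, limma adjusted p = 0.00841). The longest coding transcripts of Kifc1 and Kifc5b were 96.8% identical over 2312 bases, and 3 pseudogenes matched each at over 91% identity. How reads shared by such copies were assigned is not given in the sources used here, so the split between Kifc1 and Kifc5b is uncertain and they do not count as independent.

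The other 6 tested spindle kinesins were not called. Kif20a, which carries the chromosomal passenger complex to the midzone, had 13.1, 7.24, 4.21 and 7.92 FPKM in the wild-type libraries and 26.98, 18.8, 6.697 and 17.9 FPKM in the knockout libraries (log2 fold change 0.98, SE 0.41, limma adjusted p = 0.0783). Knockout replicate 3 lay among the wild-type libraries and the other knockout libraries above them all. Kif20a was called higher when knockout replicate 3 or wild-type replicate 1 was left out (limma adjusted p = 0.00787 and 0.0476). It was also called higher without the 3 libraries highest in granulosa and stromal markers (limma adjusted p = 0.0183). With a term for the replicate number its limma adjusted p was 0.0105. Over all its alternatives the adjusted p ran from 0.00787 to 0.197. Kif2c, which takes microtubule ends apart at centromeres, had 11.8, 9.71, 8.91 and 9.17 FPKM in the wild-type libraries and 19.2, 12.7, 6.196 and 18.4 FPKM in the knockout libraries (log2 fold change 0.37, SE 0.32, limma adjusted p = 0.376). Its knockout replicate 3 was below every wild-type library, and without that library or without all 3 it was called higher (limma adjusted p = 0.0378 and 0.0264, range over its alternatives 0.0264 to 0.674). The part of the somatic markers of knockout replicate 3 in these values was not tested. The noncoding RNA gene Gm4961 matched 50.8% of the Kif2c transcript at 91.7% identity, on the opposite strand.
Kif23, the motor subunit of centralspindlin, had 6.13, 8.0, 4.63 and 9.37 FPKM in the wild-type libraries and 13.97, 16.01, 10.3 and 6.54 FPKM in the knockout libraries (limma adjusted p = 0.123), and it was called higher without knockout replicate 4, its lowest knockout library (limma adjusted p = 0.0398, range over its alternatives 0.0398 to 0.549). Kif22, which pushes chromosome arms away from the poles, had 22.3, 21.5, 12.8 and 16.8 FPKM in the wild-type libraries and 26.4, 28.8, 13.99 and 22.2 FPKM in the knockout libraries (limma adjusted p = 0.409). The genotypes overlapped for both. Kif2a, which shortens microtubules at spindle poles, had 12.9, 15.8, 24.7 and 22.3 FPKM in the wild-type libraries and 19.5, 13.2, 18.8 and 15.1 FPKM in the knockout libraries (limma adjusted p = 0.656), again with overlap. Kif18b, which shortens the microtubules that reach the cell cortex, had 4.36, 5.24, 6.87 and 4.54 FPKM in the wild-type libraries and 3.64, 3.02, 2.56 and 4.13 FPKM in the knockout libraries (limma adjusted p = 0.123). All knockout libraries of Kif18b were below all wild-type ones, though the difference was not called, and its log2 fold change of -0.52 became 0.02 after the GC correction (limma adjusted p = 0.964). Exons of Kif20a, Kif2a and Kif4 overlap those of Cdc23, Dimt1 and Pdzd11 on the opposite strand over 29.3%, 19.2% and 15.1% of their length. Without knowledge of the strand setting, reads there cannot be told apart.

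The order of the spindle kinesins by level differed between the genotypes. In wild type Kif4 was followed by Kif2a, Kif22 and Kif14, at means of 18.9, 18.3 and 13.3 FPKM, of which Kif2a and Kif22 did not differ beyond their spread. In knockout Kif20b was at the top with 25.1 ± 4.05 FPKM (SD, n = 4), ahead of Kif22 at 22.9 ± 6.51 FPKM, a gap smaller than their spread. Kif14 came near the end of that order with 3.46 FPKM.

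Among transport kinesins the largest falls on the log2(FPKM + 1) scale were in Kif21a, Kif17 and Kif16b. Kif21a (chromosome 15, 90933276 to 91049948), a kinesin-4 that restrains microtubule growth and moves cargo in neurons, had 18.9, 18.7, 14.7 and 13.3 FPKM in the wild-type libraries and 0.726, 3.06, 2.01 and 1.02 FPKM in the knockout libraries. It fell 9.62-fold (log2 fold change -2.75, SE 0.31, limma adjusted p = 7.53e-05), the largest change on this scale among the 29 tested kinesins. Kif17 (chromosome 4, 138250435 to 138301967), a motor of dendrites and cilia, had 8.32, 4.48, 2.405 and 18.6 FPKM in the wild-type libraries and 0.504, 0.8704, 0.2199 and 0.0228 FPKM in the knockout libraries. Its wild-type libraries spread widely, with replicate 4 the highest, and all were above the knockout libraries, 20.9-fold on average (log2 fold change -2.48, SE 0.49, limma adjusted p = 0.00221), with a fold of 12.5 without wild-type replicate 4 and of 33.9 without knockout replicate 2. Kif16b (chromosome 2, 142617474 to 142901531), which positions early endosomes, had 18.96, 18.7, 22.1 and 15.9 FPKM in the wild-type libraries and 6.99, 5.18, 8.298 and 9.35 FPKM in the knockout libraries and fell 2.54-fold (log2 fold change -1.25, SE 0.23, limma adjusted p = 0.00155).

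The other 3 called transport kinesins were low. Kifc2 (chromosome 15, 76659858 to 76668196), a motor of axons and dendrites that walks to the minus end, had 3.003, 3.51, 4.52 and 4.49 FPKM in the wild-type libraries and 2.07, 0.787, 0.705 and 1.595 FPKM in the knockout libraries. It fell 3.01-fold (log2 fold change -1.12, SE 0.30, limma adjusted p = 0.0109) with no overlap between the genotypes. Kif21b (chromosome 1, 136131389 to 136177998), the relative of Kif21a, had 4.01, 1.53, 1.95 and 1.14 FPKM in the wild-type libraries and 0.4702, 0.293, 0.5099 and 0.455 FPKM in the knockout libraries (log2 fold change -1.07, SE 0.32, limma adjusted p = 0.0209). Like Kif17, it entered the test through its wild-type libraries alone. Kif13a (chromosome 13, 46749087 to 46929867), which carries endosomal cargo, had 2.396, 3.701, 6.97 and 3.75 FPKM in the wild-type libraries and 0.979, 1.21, 3.08 and 0.8401 FPKM in the knockout libraries (log2 fold change -1.05, SE 0.36, limma adjusted p = 0.0368). Its knockout replicate 3 was above wild-type replicate 1, its fold was 2.75 with all libraries and 4.16 without knockout replicate 3, and its call ended under 10 of its 21 alternatives (limma adjusted p 0.0104 to 0.136), among them the removal of any 1 of wild-type replicates 2, 3 and 4 or knockout replicates 1, 2 and 4.

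**Figure D2:**
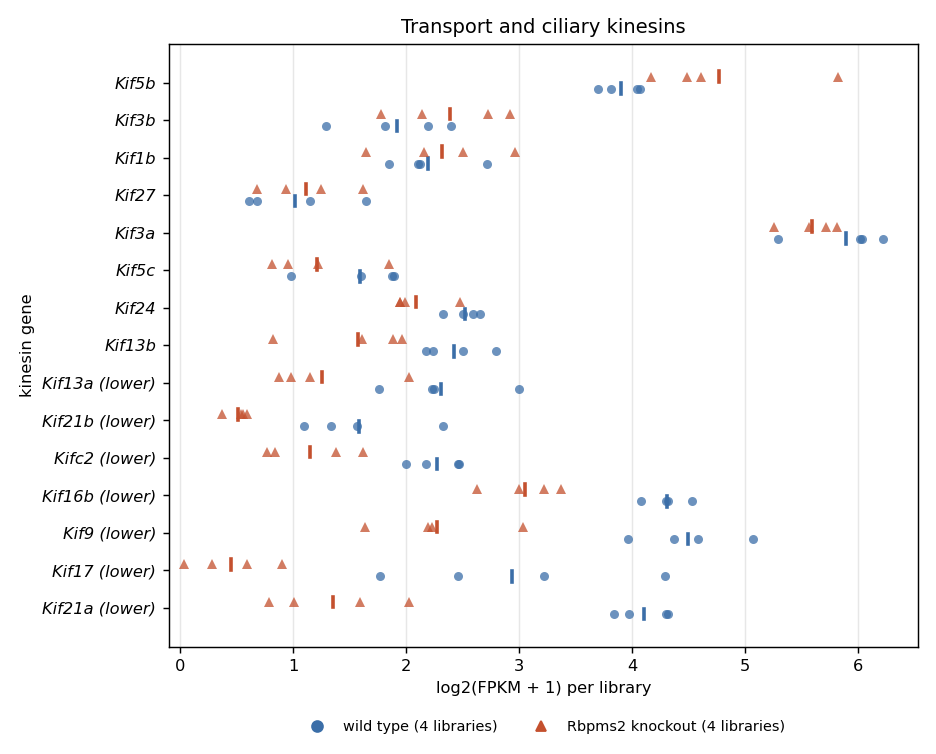
Levels of the 12 tested transport kinesins and of Kif9, Kif24 and Kif27. The x axis is log2(FPKM + 1), each circle a wild-type library, each triangle a knockout library and each short bar the mean of 4 libraries. Kif3a has the highest mean in both genotypes, the called genes fill the lower rows, and knockout replicate 3 stands apart to the right for Kif5b.

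The other 6 tested transport kinesins were not called. Kif3a, a motor subunit of heterotrimeric kinesin-2, had 73.6, 63.4, 38.1 and 64.2 FPKM in the wild-type libraries and 55.3, 51.6, 37.2 and 46.2 FPKM in the knockout libraries (log2 fold change -0.30, SE 0.23, limma adjusted p = 0.317). By mean level it was the most abundant of the 42 kinesins in both genotypes, although Kif4 was higher in wild-type replicate 3 and Kif5b in knockout replicate 3, and the genotypes overlapped. Kif3b, the usual partner of Kif3a in that motor, was far lower at 2.51, 1.45, 4.27 and 3.56 FPKM in the wild-type libraries and 3.41, 5.601, 2.43 and 6.55 FPKM in the knockout libraries (limma adjusted p = 0.303). Kif5b, the kinesin-1 heavy chain of most tissues, had 11.95, 13.04, 15.8 and 15.5 FPKM in the wild-type libraries and 23.3, 16.9, 55.4 and 21.4 FPKM in the knockout libraries (log2 fold change 0.86, SE 0.33, limma adjusted p = 0.0527). Every knockout library was above every wild-type library, and replicate 3, the tube with the highest granulosa, stromal and immune marker sums, was more than double the others. Without it the log2 fold change was 0.51 (limma adjusted p = 0.0837), and after the correction for GC content it was 0.41 (limma adjusted p = 0.322). Kif5b was called higher under 10 of its 23 alternatives, among them without the 3 libraries highest in granulosa and stromal markers (limma adjusted p = 0.0442, range over its alternatives 0.0218 to 0.322). Kif13b, a kinesin-3 that carries vesicles, had 3.53, 3.72, 4.67 and 5.92 FPKM in the wild-type libraries and 2.69, 2.05, 2.91 and 0.771 FPKM in the knockout libraries (limma adjusted p = 0.051). Its libraries did not overlap either, and it was called lower without knockout replicate 3 (limma adjusted p = 0.0351, range over its alternatives 0.0342 to 0.263). Kif1b, which moves mitochondria and vesicle precursors, had 2.59, 3.301, 5.55 and 3.37 FPKM in the wild-type libraries and 4.67, 3.47, 6.79 and 2.12 FPKM in the knockout libraries (limma adjusted p = 0.797). Kif5c, a neuronal kinesin-1 heavy chain, had 2.71, 2.66, 2.04 and 0.976 FPKM in the wild-type libraries and 0.934, 0.761, 2.598 and 1.33 FPKM in the knockout libraries (limma adjusted p = 0.386). Both overlapped between the genotypes.

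Of the 10 ciliary, signalling and less studied kinesins 3 were tested and 1 was called. Kif9 (chromosome 9, 110476958 to 110525179), a motor of motile cilia and of the sperm tail, had 22.95, 32.6, 14.6 and 19.6 FPKM in the wild-type libraries and 2.11, 3.58, 3.67 and 7.18 FPKM in the knockout libraries. It fell 5.43-fold (log2 fold change -2.22, SE 0.34, limma adjusted p = 0.000444), and its highest knockout library was below its lowest wild-type library. By mean level Kif9 was the third of all kinesins in wild type, after Kif3a and Kif4. Kif24, which holds back the outgrowth of cilia, had 4.67, 4.02, 5.31 and 5.01 FPKM in the wild-type libraries and 2.85, 2.84, 2.96 and 4.58 FPKM in the knockout libraries (limma adjusted p = 0.189). Kif27, a relative of Kif7, had 1.22, 0.598, 0.523 and 2.12 FPKM in the wild-type libraries and 2.07, 0.9098, 1.37 and 0.601 FPKM in the knockout libraries (limma adjusted p = 0.835). Neither was called, and limma called 0 of the 3 higher, with 0 at an unadjusted p under 0.05 and 0 in limma-voom.

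The 13 kinesins that were not tested stayed at or below 4.71 FPKM in every library. They were Kif2b of the spindle list, Kif1a, Kif1c, Kif3c, Kif5a and Kifc3 of the transport list, and Kif6, Kif7, Kif12, Kif19a, Kif26a, Kif26b and Kif28. The highest was Kif12 in knockout replicate 2 (4.71 FPKM), with 0.0754 FPKM in knockout replicate 1 and 0 reads in the other 6 libraries. Kif1c, which carries cargo to cell protrusions, had 0.909, 0.927, 3.03 and 2.53 FPKM in the wild-type libraries and 0.282, 0.737, 1.65 and 0.474 FPKM in the knockout libraries, with the higher values in wild-type replicates 3 and 4 and knockout replicate 3. Kif5a, a neuronal kinesin-1 heavy chain, had 0.0359, 0.245, 0.169 and 0.309 FPKM in the wild-type libraries and 0.624, 0.718, 0.841 and 0.823 FPKM in the knockout libraries, and Kif1a, which carries synaptic vesicle precursors, had 0.0808, 0.0647, 0.1397 and 0.103 FPKM in the wild-type libraries and 0.183, 0.324, 0.8099 and 0.314 FPKM in the knockout libraries. The knockout libraries of these 2 were all above their wild-type libraries, at levels under 1 FPKM. Kif2b and Kif12 had 0 reads in every wild-type library, which allows up to 0.0346 and 0.0228 FPKM over the group (3 reads). Kif19a had 0 reads in every knockout library, which allows up to 0.0155 FPKM. These limits cover counting error only.

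**Figure D3:**
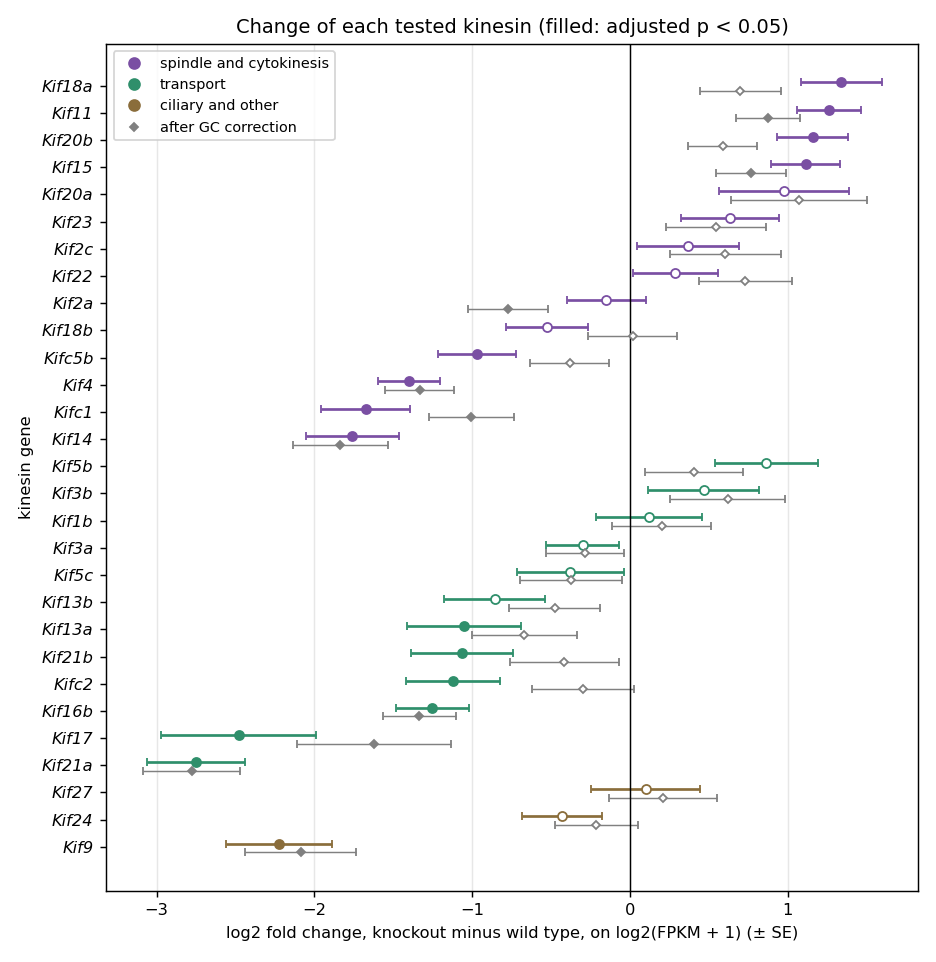
Log2 fold change of each of the 29 tested kinesins, knockout minus wild type on log2(FPKM + 1), with its standard error. Coloured circles are the values as deposited, grey diamonds the values after the trend against GC content was removed in each library, and filled marks were called at a limma adjusted p under 0.05. Kif21a, Kif9, Kif14, Kif4 and Kif16b keep nearly the same place, whereas Kif18a, Kif20b, Kifc2 and Kif21b move towards 0.

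The fold changes of all genes varied with the GC content of their transcripts. Over all tested genes the median log2 fold change went from 0.52 among the genes with the lowest GC content (the first of 10 equal bins) to -0.89 among those with the highest. The 4 kinesins that rose had coding transcripts of 38.3% to 42.7% GC, the 4 spindle kinesins that fell 46.4% to 57%, and the 6 transport kinesins that fell 46.4% to 60.1%. With each library's trend against GC removed, 2 kinesins were higher and 8 lower, where 18.5% and 18.9% of all genes were. Kif11 and Kif15 stayed called higher (log2 fold changes 0.88 and 0.77, limma adjusted p = 0.00669 and 0.0187). Kif18a and Kif20b went to 0.70 and 0.59 (limma adjusted p = 0.0533 and 0.0541). Kif4, Kif14, Kifc1, Kif9, Kif16b, Kif17 and Kif21a stayed called lower, with log2 fold changes of -1.33, -1.84, -1.01, -2.09, -1.34, -1.62 and -2.78. Kifc5b, Kif13a, Kif21b and Kifc2 lost their call (limma adjusted p = 0.255, 0.136, 0.369 and 0.498). Kif2a, at 38.6% GC, was called lower in this fit (-0.77, limma adjusted p = 0.0336).

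**Figure D4:**
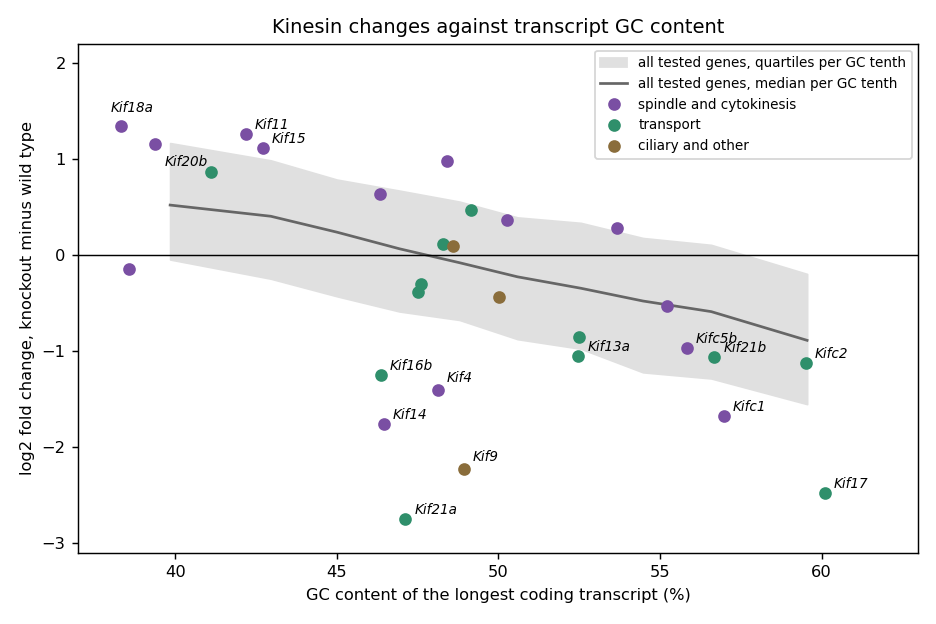
Log2 fold change of the 29 tested kinesins against the GC content of the longest coding transcript. The grey line and band are the median and quartiles of all tested genes in 10 equal bins of GC content, and the called kinesins are named. The 4 kinesins that rose lie at 38.3% to 42.7% GC, near or above the height of the band's upper edge. Kif21a, Kif9, Kif14, Kif4, Kif16b and Kifc1 lie below the band, Kif13a just below its lower edge, and Kif17 just past its right end.

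When the 3 libraries highest in granulosa and stromal markers were left out, 24 kinesins could be tested, of which 7 were called higher and 6 lower. Of all 9189 genes tested in that fit 1635 were called higher and 2265 lower. In the spindle list 6 were higher (with Kif20a and Kif2c added) and 3 lower (Kifc5b had a log2 fold change of -0.87, limma adjusted p = 0.0507). In the transport list 1 of 8 was higher (Kif5b) and 2 lower (Kif16b and Kif21a). Kif13a, Kif17, Kif21b, Kif5c and Kif27 fell out of that test because fewer libraries reached 1 FPKM, and Kifc2 lost its call (limma adjusted p = 0.115).

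The RNA of genes whose products work with spindle kinesins also went both ways. Of 27 tested genes of the spindle and midzone 8 rose and 6 fell (51.9% called), with a median log2 fold change of 0.23 (-0.02 after the GC correction). Among all tested genes 43.4% were called, 17.7% higher and 25.6% lower. The smallest p-values were those of Aurkc, a meiotic Aurora kinase (12.5, 7.73, 6.301 and 15.7 FPKM in the wild-type libraries and 1.68, 0.0451, 0.496 and 1.44 FPKM in the knockout libraries, log2 fold change -2.61, limma adjusted p = 0.000401), of Ckap5, a microtubule polymerase (2.86-fold higher, limma adjusted p = 0.000463), and of Spc25, a kinetochore subunit (2.57-fold higher, limma adjusted p = 0.00049). Cenpe rose from 16.9 to 32.2 FPKM (limma adjusted p = 0.00881). Racgap1, the partner of Kif23 in centralspindlin, had 14.01, 10.2, 7.83 and 10.6 FPKM in the wild-type libraries and 26.8, 20.3, 11.8 and 21.5 FPKM in the knockout libraries and rose 1.89-fold (limma adjusted p = 0.0329), with knockout replicate 3 below wild-type replicate 1. In the chromosomal passenger complex, the cargo of KIF20A, Aurkb, Incenp and Birc5 fell (log2 fold changes -1.39, -1.18 and -0.54, limma adjusted p = 0.00892, 0.00224 and 0.0423) and Cdca8 was not called (-0.49, limma adjusted p = 0.0736). Cit, the citron kinase that binds KIF14, fell 1.76-fold (limma adjusted p = 0.039). Prc1, the midzone bundler that recruits KIF4, had 32.9, 25.7, 18.2 and 22.7 FPKM in the wild-type libraries and 13.96, 23.01, 13.9 and 14.5 FPKM in the knockout libraries and was not called (limma adjusted p = 0.0792). After the GC correction 4 genes of this list were higher and 6 lower, and Cenpe, Birc5 and Cit were not called (log2 fold changes 0.55, -0.55 and -0.22, limma adjusted p = 0.0945, 0.0584 and 0.521), where the value of Birc5 was as large as before. Without wild-type replicate 2, knockout replicate 1 or knockout replicate 4 the list had 4, 5 and 5 genes higher.

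Among light chains and cargo adaptors 6 of 18 tested genes fell and 1 rose (38.9% called, against 43.4% of all tested genes). Their median log2 fold change was -0.22 (0.04 after the GC correction). Trak1, which links mitochondria to kinesin-1, had 6.45, 6.44, 4.33 and 10.9 FPKM in the wild-type libraries and 0.531, 0.963, 1.697 and 0.374 FPKM in the knockout libraries and fell 7.88-fold (limma adjusted p = 0.000684). Klc3, a kinesin light chain that entered the test through its wild-type libraries alone, fell from 3.65 to 0.202 FPKM (limma adjusted p = 0.00148), and Arl8a, a GTPase that couples lysosomes to kinesins, from 14.1 to 3.55 FPKM (limma adjusted p = 0.00642). The light chains Klc1, Klc2 and Klc4 were not called, with log2 fold changes of 0.10, 0.23 and -0.29 (limma adjusted p = 0.787, 0.606 and 0.57). Kifap3, the subunit that joins Kif3a and Kif3b to cargo, had 41.1, 48.9, 45.2 and 38.9 FPKM in the wild-type libraries and 50.7, 37.9, 43.99 and 77.7 FPKM in the knockout libraries and was not called (limma adjusted p = 0.461). Its level was above that of Kif3b in every library. The list had 3 genes lower after the GC correction, where Klc3 was not called (limma adjusted p = 0.102, its fold as deposited was 18.0, or 36.2 without knockout replicate 3). It had 3 lower without wild-type replicate 4, where Klc3 left the test. Its 1 gene higher lost that call without any 1 of wild-type replicates 1, 2 and 4 or knockout replicates 1 and 3.

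Dynein, which moves towards the minus end of microtubules, had 25 tested genes with dynactin, of which 5 rose and 8 fell (median log2 fold change 0.03). This was 52% called, against 43.4% of all tested genes. Dctn1, the largest dynactin subunit, fell 3.26-fold (limma adjusted p = 0.000134), and the light chain genes Dynll1 and Dynlrb1 fell 2.67-fold and 2.85-fold (limma adjusted p = 0.00028 and 0.000396). The light chain gene Dynlrb2 of the same list was called higher. Its fold was 29.7, or 134 without wild-type replicate 2. Without knockout replicate 2 the list had 5 genes lower. Of 16 tubulin genes 9 fell and 1 rose (62.5% called, median -1.15), with 4 lower and 2 higher after the GC correction. Tubg2, a gamma-tubulin, fell 66.3-fold, and the alpha-tubulins Tuba4a and Tuba1c 11.6-fold and 8.57-fold (limma adjusted p = 2.29e-05, 0.000148 and 0.000364). The fold of Tubg2 was 279 without knockout replicate 3, and that of Tuba1c 15.1 without knockout replicate 2. Tubulin genes are near copies of each other, so reads may have been split between them. Without wild-type replicate 4 the list had 5 genes lower, and the number higher was 3 without knockout replicate 4 and 0 without any 1 of 4 other libraries (wild-type replicates 1 and 4, knockout replicates 1 and 2). Of 22 genes of intraflagellar transport, the cargo trains that kinesin-2 pulls in cilia, 11 rose and 3 fell (63.6% called, median 0.80). After the GC correction 10 of them rose and 2 fell. Ift27 fell 9.54-fold, while Ift74 and Ttc26 rose 3.83-fold and 14-fold (Ttc26 entered the test through its knockout libraries alone; limma adjusted p = 2.47e-06, 8.04e-05 and 0.000111). Of 22 proliferation genes 3 rose and 5 fell (36.4% called, below the share of all tested genes), with 7 higher without knockout replicate 3 and 5 without wild-type replicate 2. Top2a and Cdc20 rose 9.5-fold and 7.18-fold, and Ube2c fell 7.53-fold (limma adjusted p = 8.47e-06, 0.000112 and 8.43e-06).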

How the data were processed

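Expression values were deposited as FPKM, which the authors made with cutadapt, HISAT2 and HTSeq on GRCm38 (mm10) per the submitters' processing notes. Tool versions, annotation and strand setting: not given in the sources used here. Symbols, exon lengths, positions and transcripts came from GENCODE release M21 (21902 of 21959 genes matched). FPKM multiplied by exon length came in steps of 1 read, with 97.4% to 97.6% of values whole within 0.02 reads, which gave the depths. Amplified reads without molecular identifiers are not independent molecules.

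Genes reaching 1 FPKM in 4 libraries were fitted with limma 3.58.1 (R 4.3.3) on log2(FPKM + 1), eBayes with trend, a term for genotype alone, and Benjamini-Hochberg adjustment over all 11235 genes. The kinesins and all lists were chosen with earlier results of these data known. Named were all kinesins and up to 3 called partners with the smallest p per list. Cenpe, Racgap1, Prc1, Cit, Kifap3, Dynlrb2 and the other members of a named complex were chosen after their values were seen. Alternatives were other pseudocounts, filters and scalings, the replicate block, array weights, other eBayes settings, libraries left out, a GC correction (loess, span 0.5, per library) and limma-voom on the recovered reads. Copies were sought with blastn at 90% identity or more over 200 bases or more. The fit was also run on simulated data with a small planted set of changed genes and independent noise. That run does not cover the GC trend, the differing somatic markers or the large share of genes called here. Tables and figures used Python 3.11.15, pandas 2.3.3 and matplotlib 3.10.9.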

Additional observations from a re-analysis of the deposited data

Results flagged for a closer look

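Of 60 groups of 4 libraries examined (29 kinesins and Rbpms2 in each genotype), 2 had a library whose gap to the next made up most of the range of the group, and chance alone flags about 1 group in 20. Kif24 in knockout replicate 4 stood at 4.58 FPKM, above 2.84 to 2.96 FPKM in the other knockout libraries and within the wild-type range. Kif11 in wild-type replicate 4 stood at 5.65 FPKM, below 6.88 to 7.06 FPKM in the other wild-type libraries.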

How the results depend on the processing

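Of 639 values of single kinesins under the alternatives, 587 stayed on their side of the threshold, 24 lost and 28 gained a call, and no called value changed sign. Kif4, Kif9, Kif11, Kif14, Kif15, Kif16b, Kifc1 and Kif21a were called under all 23 alternatives. Kif17 was called under all 17 in which it was tested, but it could pass the filter only with a difference between the genotypes. It left the test without any 1 wild-type library, with the filter at 5 FPKM and without the 3 libraries. Its calls are therefore no measure of stability. The count of kinesins called higher was 7 without the 3 libraries highest in granulosa and stromal markers and 2 after the GC correction, and that of kinesins called lower 7 with the filter at 5 FPKM and 6 without the 3 libraries. Of all genes tested without the 3 libraries (9189) 1635 were called higher and 2265 lower. With the filter at 5 FPKM 1617 of 7427 genes were called higher and 2156 lower. Leaving out 1 library gave 4 to 6 higher and 8 to 12 lower. The median over kinesins was 0.07 with the filter at 5 FPKM, which keeps 18 of them, and -0.09 without the 3 libraries. Spindle kinesins called higher were 2 after the GC correction and 4 to 6 without 1 library. Transport kinesins called higher were 1 (Kif5a) without a filter and 1 (Kif5b) with equal totals, with median-of-ratios or quantile scaling, with the filter at 5 FPKM, the replicate block, array weights, robust eBayes, limma-voom and without the 3 libraries, and 0 to 1 without 1 library. Those called lower were 2 with the filter at 5 FPKM and without the 3 libraries, and 3 with quantile scaling and after the GC correction with or without the replicate block. Transport kinesins called lower were 3 to 7 without 1 library (3 without wild-type replicate 2, 3 or 4, where Kif17 and Kif21b left the test). Their median was -1.26 with a pseudocount of 0.1, -0.399 with 5, -0.409 without a filter, -0.621 with quantile scaling, -0.556 without the 3 libraries, -0.395 after the GC correction with or without the block, -1.255 with limma-voom and -0.993 to -0.602 without 1 library.

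Among partners, adaptors called higher were 0 without a filter, 2 after the GC correction with or without the block and 0 to 1 without 1 library. Adaptors called lower were 3 with the filter at 5 FPKM and after the GC correction with or without the block, 2 without the 3 libraries and 3 to 6 without 1 library. Spindle partners called higher were 4 after the GC correction and 4 to 9 without 1 library (4 without wild-type replicate 2, 5 without knockout replicate 1 or 4). Dynein genes called lower were 5 without the 3 libraries, 3 after the GC correction with the block and 5 to 8 without 1 library (5 without knockout replicate 2). Tubulins called higher were 0 without a filter, with robust eBayes and without the 3 libraries, 2 with median-of-ratios scaling, the block, the GC correction and limma-voom, 4 after the GC correction with the block and 0 to 3 without 1 library. Tubulins called lower were 5 without a filter, 3 without the 3 libraries, 4 after the GC correction and 5 to 9 without 1 library (5 without wild-type replicate 4). Proliferation genes called higher were 5 with the block and without the 3 libraries, 6 after the GC correction with the block and 3 to 7 without 1 library (7 without knockout replicate 3). The cause of these shifts was not tested beyond the smaller number of genes or libraries in some settings.

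Same-numbered libraries of the 2 genotypes deviated together, with a correlation over 0.1, in 2 of 4 pairs (0.185, 0.016, 0.361 and -0.053). Wild-type replicate 1 and knockout replicate 4 reached 0.33, so these correlations cannot settle whether the numbers pair the libraries. With the replicate block 6 kinesins were higher and 11 lower, and of all tested genes 2113 were higher and 2921 lower. Median-of-ratios scaling moved the median of all genes from -0.12 to 0 on the log2 scale and quantile scaling to 0.04. The 13 kinesins mostly below 1 FPKM were tested only without a filter, where Kif5a was the 1 called.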
